A study of Mus musculus with 2 samples.

Results

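Kit, Cd34, Flt3, Cd93 and Adgrg1 encode surface proteins that mark blood progenitor cells, and their spliced mRNA was followed in 63.3 cells, a line of mouse acute myeloid leukemia. They were chosen by name, as 5 of the 54736 gene symbols in the deposited matrix, and all 5 were found there, under the IDs ENSMUSG00000005672.12 (Kit), ENSMUSG00000016494.9 (Cd34), ENSMUSG00000042817.15 (Flt3), ENSMUSG00000027435.8 (Cd93) and ENSMUSG00000031785.16 (Adgrg1). Single-cell RNA was profiled in cells that carried a DNA barcode for their culture and were mixed before 2 runs, both held in a single matrix. The cultures form 2 series. In the first, brequinar was given at 2 µM for 6, 12, 24 or 48 h. In the second, estradiol was withdrawn for 6, 12, 24 or 48 h by washing the cells in PBS and moving them to medium without estrogen. Each series has its own 0 h culture. All cells were grown with 0.5 µM beta-estradiol and with stem cell factor from conditioned medium of a hamster ovary line. Estrogen is the only component the labels name as left out on withdrawal, and they do not mention stem cell factor there. They do not say which gene estradiol controls in the line, whether the line is 1 clone, or whether the brequinar 0 h culture received solvent. No untreated culture was taken at 6 to 48 h, so treatment, time in culture and, for withdrawal, washing cannot be told apart.

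Each of the 10 conditions was 1 culture, so no difference below has a replicate check and no test was run. Values are UMIs of a gene per 1000000 spliced UMIs of the culture (CPM). Intervals are exact 95% intervals and cover counting error only. The 0 h cultures of both series give one gauge of the spread between cultures: over 5490 genes at 20 CPM or more, 3 differed by 1.5-fold, and the 5 receptor genes differed by 1.15-fold at most.

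Kit and Flt3 are receptor tyrosine kinases of one structural family. Kit binds stem cell factor and Flt3 binds FLT3 ligand, and both signal to survival and division in progenitors through RAS, PI3 kinase and STAT5. Cd34 is a mucin-like glycoprotein used to define stem and progenitor cells. Cd93, known as AA4.1 in the mouse, is a transmembrane glycoprotein with a C-type lectin-like domain, found on early progenitors and also on monocytes, granulocytes and endothelium. Adgrg1, or GPR56, is an adhesion G protein-coupled receptor that signals through G12/13 and is enriched on blood stem cells. Kit, Cd34, Flt3 and Adgrg1 are normally lost as myeloid cells mature. Brequinar blocks pyrimidine synthesis through the enzyme dihydroorotate dehydrogenase.

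Cultures held 528 to 1536 cells and 5236694 to 19931921 UMIs, so that 3 counts correspond to 0.151 to 0.573 CPM. The brequinar 48 h culture had the fewest cells, and the withdrawal 48 h culture the lowest median depth (6509 UMIs per cell). Spi1, the gene of the myeloid factor PU.1, had 187 and 198 CPM in the brequinar and withdrawal 0 h cultures. Markers of mature lineages also differed between cultures. The sum of 12 neutrophil markers lay between 330.3 and 1971 CPM in 9 cultures and at 59076 CPM after 48 h of withdrawal, with S100a9 alone at 20183 CPM. The eosinophil list (7 genes) summed to 11669 CPM at 48 h of brequinar, against 1444 CPM at 0 h. At 24 h of withdrawal it summed to 16598 CPM, against 1236 CPM at 0 h. Most of these 48 h and 24 h sums came from Prg2 (9165 and 9559 CPM) and Prg3 (2361 and 6973 CPM), with Ear1 and Ear2 at 0 throughout. The mast cell and basophil list (8 genes) summed to 3204 CPM at 48 h of brequinar, almost all from Cpa3 at 3131 CPM, while Fcer1a was at 0 in all cultures. Lymphoid, erythroid, dendritic, megakaryocyte and endothelial lists reached at most 231 CPM in sum, with Cdh5 and Emcn, which define endothelium, at 0 in every culture. In pooled RNA of a culture, fewer cells of a kind and less RNA per cell cannot be told apart, and the part of these markers in the receptor values was not tested.

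Promoter windows are shown for Kit, Cd34 and Flt3, the 3 genes with the highest ratio of brequinar to withdrawal at 48 h. Each window runs from 250 bases before to 50 bases after the start of transcription in RefSeq (GRCm38.p6), written 5′ to 3′ on the gene's strand. Capitals mark matches to 1 of 5 core motifs searched on both strands: GATAA (GATA factors), GAGGAA (PU.1), TGTGGT (RUNX), TGACAG (MEIS) and CAACTG (MYB). The RefSeq promoter table used here matched 4 of the 5 genes, the first of 2 overlapping ones being shown for Kit. No window held more than 1 match, so none overlapped.
Kit (chr5:75574737-75575036, plus strand): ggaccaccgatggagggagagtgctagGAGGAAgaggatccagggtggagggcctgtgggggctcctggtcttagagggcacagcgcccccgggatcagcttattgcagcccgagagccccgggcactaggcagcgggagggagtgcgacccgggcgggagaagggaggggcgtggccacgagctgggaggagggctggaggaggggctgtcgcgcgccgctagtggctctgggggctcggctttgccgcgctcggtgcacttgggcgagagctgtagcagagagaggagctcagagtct
Cd34 (chr1:194938571-194938870, plus strand): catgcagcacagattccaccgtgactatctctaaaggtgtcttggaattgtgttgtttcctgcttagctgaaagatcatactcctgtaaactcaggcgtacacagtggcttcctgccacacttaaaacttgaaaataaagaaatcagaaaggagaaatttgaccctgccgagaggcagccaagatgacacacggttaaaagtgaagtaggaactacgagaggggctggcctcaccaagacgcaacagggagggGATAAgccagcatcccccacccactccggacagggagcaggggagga
Flt3 (chr5:147400440-147400739, minus strand): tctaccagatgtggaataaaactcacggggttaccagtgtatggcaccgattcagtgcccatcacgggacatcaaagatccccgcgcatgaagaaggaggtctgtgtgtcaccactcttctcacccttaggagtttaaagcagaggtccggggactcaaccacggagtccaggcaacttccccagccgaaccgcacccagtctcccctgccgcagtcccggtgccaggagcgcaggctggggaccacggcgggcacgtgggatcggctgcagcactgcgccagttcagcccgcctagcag

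GAGGAA stood at bases -223 to -218 of the Kit window, and GATAA at bases 4 to 8 of the Cd34 window, counted from the start of transcription. Neither Flt3 nor the 2 windows of Adgrg1 held any of the 5 motifs. Among 32544 promoter windows of this length, 28.12% held GAGGAA and 25.33% held GATAA, so a match is common. The RUNX, MEIS and MYB motifs occurred in 16.68%, 19.1% and 13.61% of windows and in none of those of the receptor genes. A match describes the sequence and is no measure of binding.

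**Figure D1:**
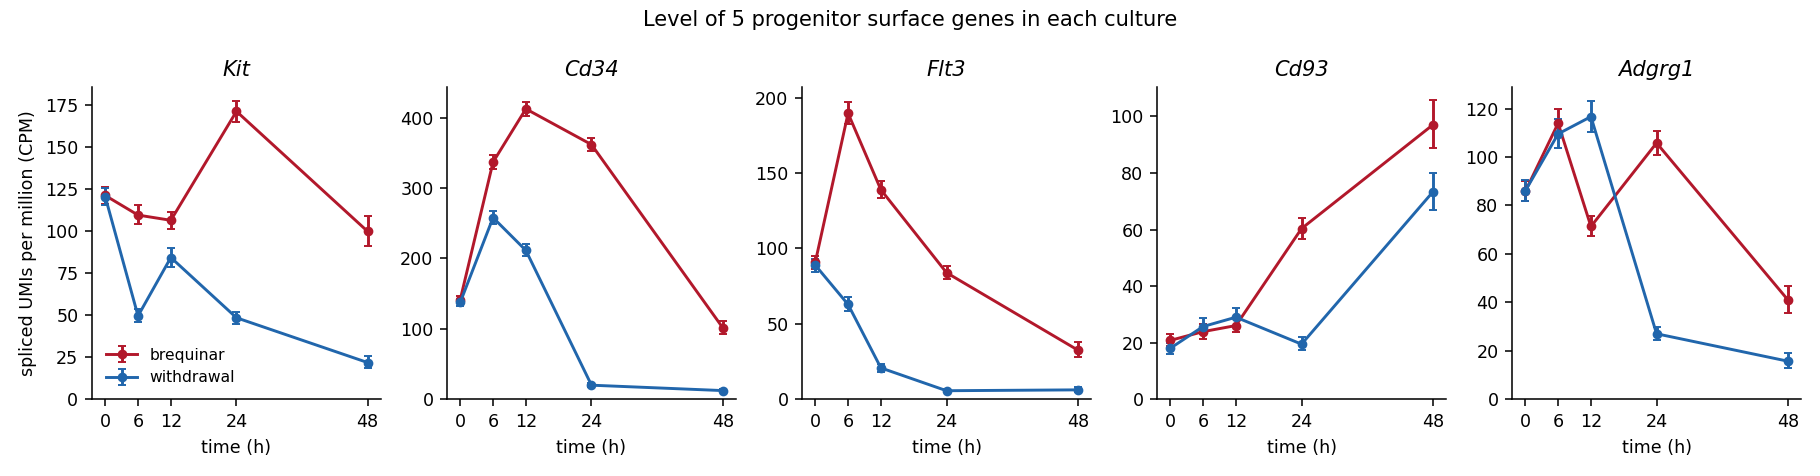
Level of each gene in CPM (linear axis from 0) against time in hours, brequinar in red and withdrawal in blue, 1 culture per point, with exact 95% intervals of the count. Kit, Cd34, Flt3 and Adgrg1 end lower after 48 h of withdrawal than after 48 h of brequinar, and Cd93 ends at its highest level in both series.

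Kit mRNA stayed near its starting level under brequinar, with a high point at 24 h, and stood lower at each time on withdrawal, in an irregular course. Over 0, 6, 12, 24 and 48 h it had 121, 109.6, 107, 171 and 99.9 CPM in the brequinar series. In the withdrawal series it had 121, 49.6, 84.4, 48.5 and 21.9 CPM at the same times. The 24 h brequinar culture was the highest of all 10 and the 48 h withdrawal culture the lowest, 7.84 times apart. At 24 h of brequinar Kit was 1.41-fold (1.34 to 1.49) higher than at 0 h, and at 48 h the ratio was 0.823 (0.748 to 0.905). With TMM and median-of-ratios scaling, other ways to scale the cultures, the 24 h ratio was 1.20 and 1.19. On withdrawal Kit had a ratio of 0.411 (0.375 to 0.450) to 0 h already at 6 h. The 12 h culture was then 1.70-fold (1.53 to 1.89) above the 6 h culture, and the 24 h culture was 1.74-fold (1.57 to 1.92) below the 12 h culture. By 48 h Kit was 5.52-fold (4.68 to 6.56) lower than at 0 h. Neighbours whose ratio included 1 were both 0 h cultures, brequinar at 6, 12 and 48 h among themselves, and withdrawal at 6 and 24 h. Cpa3, a mast cell protease gene that Kit-expressing mast cells also use, had 337, 354, 591, 1635 and 3131 CPM over the brequinar series and 362, 355, 1236, 784 and 266 CPM over the withdrawal series. Mcpt8, also on the mast cell and basophil list, was instead lower at 48 h of brequinar (13.6 CPM, against 55.7 CPM at 0 h). It was lower at 48 h of withdrawal as well (5.97 CPM, against 55.6 CPM at 0 h).

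Flt3 stood highest at 6 h of brequinar and was lower at every time of withdrawal. It had 90.8, 189.7, 139, 84.0 and 32.7 CPM over 0, 6, 12, 24 and 48 h of brequinar. On withdrawal it had 89.0, 62.9, 20.8, 5.70 and 6.27 CPM. After 6 h each brequinar culture was below the one before, and each withdrawal culture up to 24 h was likewise below its predecessor. The 6 h brequinar level was 2.09-fold (1.96 to 2.22) above 0 h. After 48 h of brequinar Flt3 was 2.78-fold (2.38 to 3.27) lower than at 0 h. On withdrawal it was 4.27-fold (3.72 to 4.93) lower at 12 h and 15.6-fold (12.5 to 19.7) lower at 24 h. With 5% free RNA removed, the ratio to 0 h at 24 h was 0.0194 in place of 0.0640. The 24 and 48 h withdrawal cultures held only 83 and 43 UMIs of Flt3 and did not differ beyond counting error (1.10-fold, 0.743 to 1.61). Highest and lowest culture differed by 33.3 times.

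Cd34 was higher in both treatments at first, and the series separated afterwards. The brequinar cultures had 141, 337, 412, 362 and 102 CPM at 0, 6, 12, 24 and 48 h. The withdrawal cultures had 138, 258, 211, 20.0 and 12.4 CPM. Cd34 was therefore at its highest between 6 and 24 h of brequinar and was far lower at 24 than at 12 h of withdrawal. At 6 h it was 2.38-fold (2.27 to 2.4959) higher with brequinar and 1.87-fold (1.78 to 1.97) higher on withdrawal, each against its own 0 h culture. In the brequinar series the 12 h level was 2.91-fold (2.79 to 3.05) that of 0 h. From 12 to 24 h of withdrawal it was 10.5-fold (9.33 to 12.0) lower, and from 24 to 48 h of brequinar 3.56-fold (3.26 to 3.90) lower. At 48 h the ratio to 0 h was 0.718 (0.653 to 0.788) with brequinar and 0.0900 (0.0716 to 0.112; 0.0448 with 5% free RNA removed) on withdrawal. Only the 0 h cultures could not be told apart among neighbours in its order of levels.

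Cd93 took a different course and was higher late in both series. It had 20.8, 23.9, 26.1, 60.4 and 97.0 CPM over 0, 6, 12, 24 and 48 h of brequinar. Withdrawal gave 18.0, 25.7, 29.0, 19.5 and 73.3 CPM. The 24 and 48 h brequinar cultures and the 48 h withdrawal culture stood above the other 7 cultures. On withdrawal Cd93 was also 1.43-fold (1.22 to 1.67) above 0 h at 6 h and 1.61-fold (1.38 to 1.88) at 12 h, while the 24 h culture did not differ from 0 h beyond counting error. At 48 h Cd93 was 4.66-fold (4.08 to 5.32) higher with brequinar and 4.06-fold (3.53 to 4.68) higher on withdrawal than at 0 h. The 48 h withdrawal culture was 3.76-fold (3.24 to 4.36) above the 24 h one. Monocyte and macrophage markers, a list of 10 genes, summed to 797 CPM at 48 h of brequinar, against 136 CPM at 0 h, and to 547 CPM at 48 h of withdrawal, against 137 CPM at 0 h. C1qa of that list was at 0 in every culture.

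Adgrg1 stood within 1.36-fold of its 0 h level up to 12 h and was lower at 48 h in both series. Its levels were 85.8, 113.9, 71.3, 106 and 41.1 CPM over the brequinar series. They were 86.0, 109.5, 117, 27.0 and 15.7 CPM over the withdrawal series. The 12 h cultures differed, the one on withdrawal being the highest of all and the one with brequinar below its 0 h culture. At 48 h Adgrg1 was 2.09-fold (1.81 to 2.42) lower with brequinar and 5.47-fold (4.4955 to 6.70) lower on withdrawal. The 24 h withdrawal culture was 4.31-fold (3.85 to 4.84) below the 12 h one. Among neighbours in the order of levels, 12 and 6 h of withdrawal and 6 and 24 h of brequinar could not be told apart at the top, nor could the 0 h cultures.

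**Figure D2:**
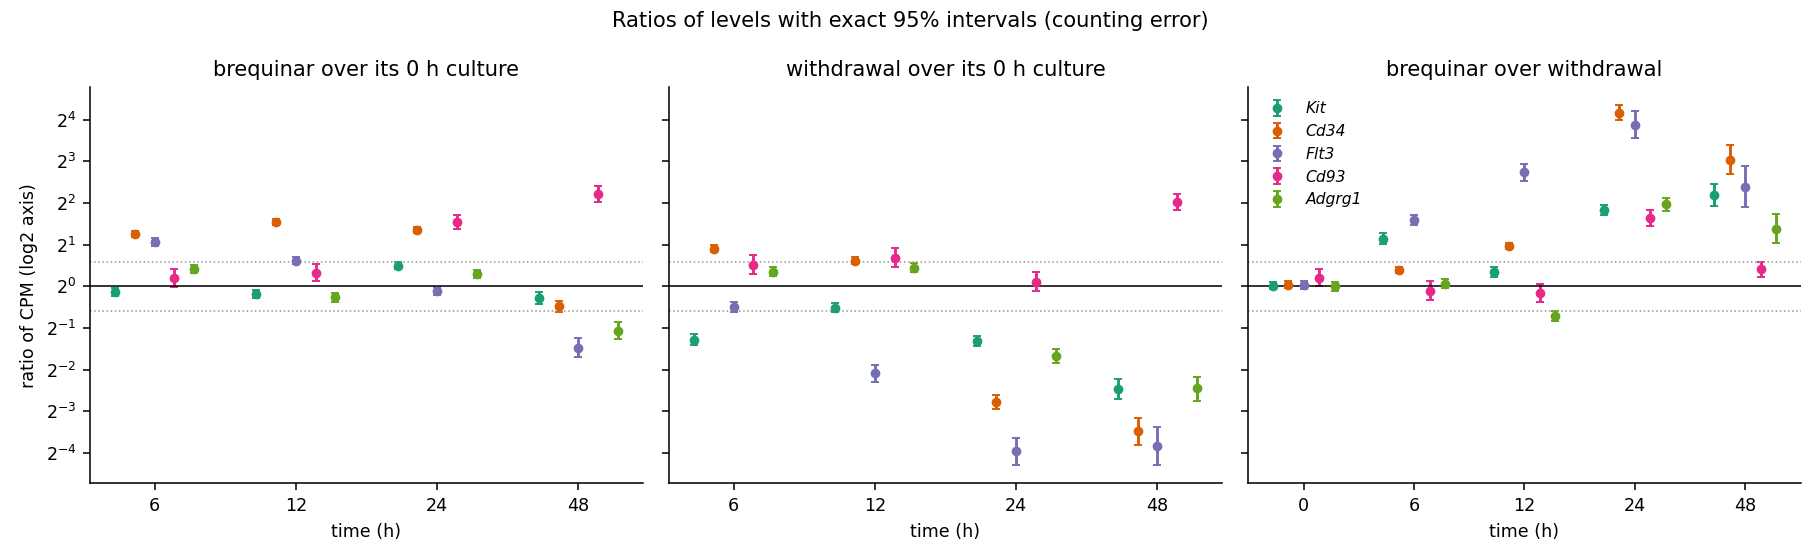
Ratio of CPM on a log2 axis for each gene and time, with exact 95% intervals, for brequinar over its 0 h culture (left), withdrawal over its 0 h culture (middle) and brequinar over withdrawal (right); dotted lines mark 1.5-fold. Withdrawal points of 4 genes lie below the lower dotted line at 24 and 48 h, and the ratio of brequinar to withdrawal is largest for Cd34 at 24 h (18.0).

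Counted as calls, a gene was taken as higher or lower at 1.5-fold or more with at least 20 CPM in either culture. At 6 h of brequinar Cd34 and Flt3 were called higher and none of the 5 lower, where 8.82% of all 5851 genes measured were higher and 4.97% lower. The same pair was higher at 12 h (background 13.5% higher, 4.67% lower), although the Flt3 ratio of 1.53 became 1.33 with both TMM and median-of-ratios scaling. Cd34 and Cd93 were higher at 24 h (29.2% higher, 13.8% lower). At 48 h Cd93 was higher and Flt3 and Adgrg1 were lower (25.7% higher, 17.3% lower). The Cd34 ratio at 48 h, 0.718, fell short of the call but reached it with TMM scaling (0.625) and with median-of-ratios scaling (0.658). Kit did likewise at 0.643 when every cell was given equal weight.

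Withdrawal for 6 h left Cd34 higher and Kit lower, against a background of 12.3% higher and 8.11% lower among 5919 genes. At 12 h Cd34 and Cd93 were higher and Flt3 was lower (13.4% higher, 11.2% lower). Both of these higher calls were narrow: the ratios of 1.54 for Cd34 and 1.61 for Cd93 became 1.41 and 1.48 with TMM scaling, and 1.38 and 1.35 with cells weighted equally. Kit, at 0.700, was called lower with TMM (0.645) and median-of-ratios scaling (0.651), as was Flt3 at 6 h (0.629 and 0.632). Kit, Cd34, Flt3 and Adgrg1 were all lower at 24 h, when 11.9% of genes were lower and 9.46% higher. Cd93, at 19.5 against 18.0 CPM, did not reach 20 CPM and had no call. At 48 h the same 4 genes were lower and Cd93 was higher. That culture had a broad background, with 40.7% of genes lower and 21.5% higher, so being called lower was common there. The median log2 ratio over all genes was -0.33 at 48 h of withdrawal, while those of Kit, Cd34, Flt3 and Adgrg1 were -2.46, -3.47, -3.83 and -2.45.

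Set directly against withdrawal at the same time, brequinar cultures held more of most receptors, with ratios highest at 24 h for Cd34 and Flt3. At 0 h no receptor gene was called in either direction, with 0% of genes higher and 0.0546% lower. At 6 h Kit was 2.21-fold (2.01 to 2.43) and Flt3 3.02-fold (2.78 to 3.28) higher with brequinar, when 1.9% of 5882 genes were called higher and 1.45% lower. At 12 h Flt3 was 6.67-fold (5.82 to 7.69) and Cd34 1.95-fold (1.86 to 2.05) higher, and Adgrg1 was 1.64-fold (1.51 to 1.77) lower (background 13.2% higher, 7.33% lower). All 5 genes were higher with brequinar at 24 h, where 29.6% of genes were higher and 8.05% lower. The ratios then were 18.0 (16.04 to 20.4) for Cd34, 14.7 (11.8 to 18.6) for Flt3, 3.91 (3.51 to 4.37) for Adgrg1, 3.53 (3.25 to 3.84) for Kit and 3.10 (2.71 to 3.54) for Cd93. Removal of 5% free RNA took the Flt3 ratio to 48.5. At 48 h the 4 genes other than Cd93 were higher with brequinar (background 37.6% higher, 8.57% lower), by 8.20-fold (6.51 to 10.4; 16.2 with free RNA removed) for Cd34, 5.21-fold (3.71 to 7.46; 12.9 with free RNA removed) for Flt3, 4.57-fold (3.80 to 5.52) for Kit and 2.61-fold (2.06 to 3.32) for Adgrg1. Cd93 stood at 97.0 CPM with brequinar and 73.3 CPM on withdrawal, a ratio of 1.32 (1.17 to 1.5002) that came to 1.02 under TMM scaling. With TMM scaling the median of all genes at 48 h was shifted by -0.38 on the log2 scale in this comparison, and the 4 calls held.

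**Figure D3:**
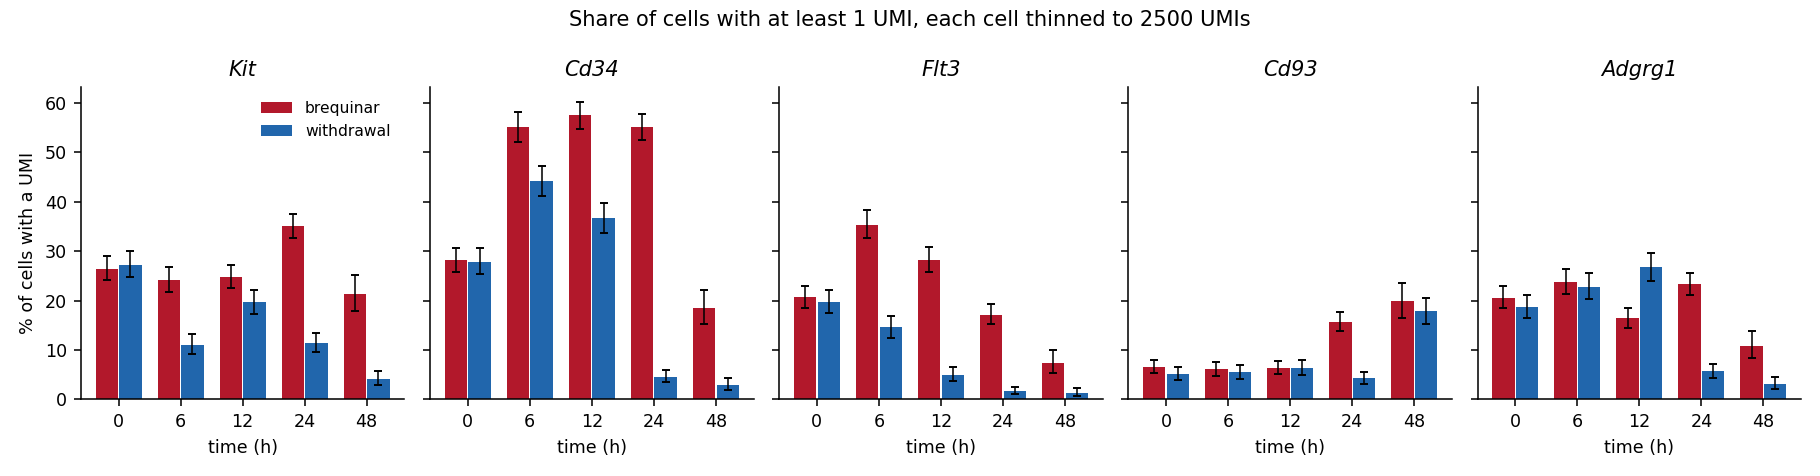
Percent of cells with at least 1 UMI of each gene after thinning each cell to 2500 UMIs, by time in hours, brequinar in red to the left of withdrawal in blue; bars start at 0 and whiskers are exact binomial 95% intervals. Cd34 is found in 55.1% of cells at 24 h of brequinar and in 4.55% at 24 h of withdrawal.

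Shares of cells with a UMI were compared after every cell was thinned to 2500 UMIs, which kept 81.3% to 97.5% of the cells of a culture. Kit was found in 26.4%, 24.2%, 24.8%, 35.0% and 21.4% of cells over 0, 6, 12, 24 and 48 h of brequinar. On withdrawal the shares were 27.3%, 11.1%, 19.6%, 11.4% and 4.17%. They followed the same dip at 6 h and partial return at 12 h as the level. The full-depth shares were 71.5% at 0 h, 75.7% at 24 h and 54.9% at 48 h of brequinar, and 73.9%, 34.7% and 12.6% at 0, 24 and 48 h of withdrawal.

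Cd34 reached 55.1%, 57.5% and 55.1% of thinned cells at 6, 12 and 24 h of brequinar, against 28.2% at 0 h, and was found in 18.4% at 48 h. Among Cd34-positive cells the mean was 1.26 UMIs at 0 h and 1.75 UMIs at 12 h. A higher level raises this mean as well as the share by counting alone, so it is not read as a separate result. On withdrawal 44.2% and 36.7% of cells were positive at 6 and 12 h, against 27.9% at 0 h, and only 4.55% and 2.93% at 24 and 48 h. Without thinning, a Cd34 UMI was present at 24 h in 86.5% of cells with brequinar and in 16.6% on withdrawal.

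Flt3 was found in 20.6%, 35.4%, 28.2%, 17.2% and 7.38% of thinned cells over the brequinar series. The withdrawal series gave 19.7%, 14.6%, 5.01%, 1.66% and 1.24%. At 24 and 48 h of withdrawal no thinned cell had more than 1 Flt3 UMI. Full-depth shares were 43.3% and 18.8% at 24 and 48 h of brequinar, and 5.10% and 4.15% at those times of withdrawal.

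Cd93 was found in 15.6% and 19.8% of thinned cells at 24 and 48 h of brequinar, against 6.57% at 0 h. On withdrawal it was found in 4.28% at 24 h and 17.8% at 48 h, against 5.20% at 0 h. Adgrg1 was found in 10.9% of cells at 48 h of brequinar, against 20.6% at 0 h, and in 3.15% at 48 h of withdrawal, against 18.8% at 0 h. Its highest share, 26.7%, was at 12 h of withdrawal. At full depth the 48 h shares were 50.2% for Cd93 and 28.0% for Adgrg1 with brequinar, and 35.0% and 9.76% on withdrawal.

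Free RNA can place a UMI in a cell that does not express the gene. As a gauge, shares were taken in the 309 cells of the 48 h withdrawal culture in which neutrophil markers made up at least 5% of UMIs (median depth 6353 UMIs, against 6626 in the other 654 cells), since neutrophils should lack Kit, Cd34, Flt3 and Adgrg1. There 2.33% (0.943 to 4.75) of thinned cells held Kit, 2.00% (0.737 to 4.30) Cd34, 0.333% (0.00844 to 1.84) Flt3 and 2.67% (1.16 to 5.19) Adgrg1. In the other 588 thinned cells of that culture, the shares of Cd34 (3.401%), Flt3 (1.70%) and Adgrg1 (3.401%) lie inside these intervals, as does that of Flt3 at 24 h of withdrawal, and are not read as expression. Kit, at 5.10% (3.47 to 7.20), lies above its interval, and the intervals of the 2 groups of cells overlap. All brequinar shares lie above them. Cd93, which neutrophils can carry, was found in 13.7% (9.99 to 18.1) of the same cells.

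Within that culture all 5 genes had lower levels in the marker-rich cells than in the rest. Kit had 13.9 CPM in the marker-rich cells and 25.5 CPM in the others (ratio 0.545, 0.352 to 0.819). Cd93 had 57.9 CPM in the marker-rich cells and 80.3 CPM in the others (0.721, 0.584 to 0.885). The ratios for Cd34, Flt3 and Adgrg1 were 0.586 (0.327 to 0.997), 0.661 (0.290 to 1.37) and 0.657 (0.402 to 1.04), of which those for Flt3 and Adgrg1 include 1. These cells were picked by other genes and share a culture, so the intervals do not speak for other cultures. Without the marker-rich cells the 48 h withdrawal ratios to 0 h were 0.211 for Kit, 0.103 for Cd34, 0.0789 for Flt3, 4.45 for Cd93 and 0.205 for Adgrg1.

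**Figure D4:**
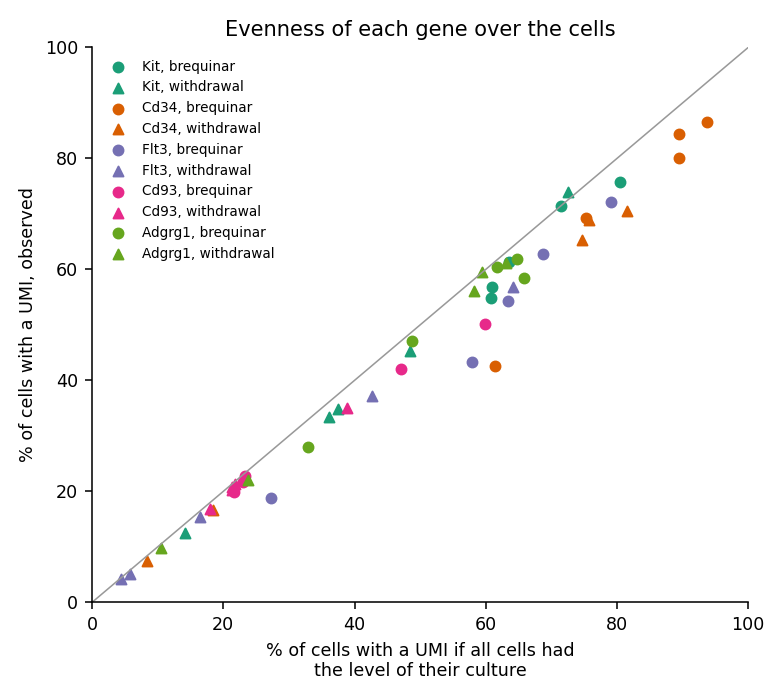
Observed percent of cells with a UMI at full depth against the percent that would have one if every cell of a culture had that culture's level, 50 points for 5 genes in 10 cultures (circles brequinar, triangles withdrawal); the line marks equality. The point farthest below the line is Cd34 at 48 h of brequinar, 42.6% against 61.4%.

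Evenness over cells was gauged by the share of positive cells that the level of a culture would give if all its cells had that level at their own depth. Kit and Adgrg1 stayed within 7.34 percentage points of it in every culture. Cd34 at 48 h of brequinar was found in 42.6% of cells where 61.4% would be reached evenly, 18.8 points below. There 50% of all Cd34 UMIs came from 55 of 528 cells (10.4%), compared with 261 of 1503 cells (17.4%) at 0 h. Flt3 showed its widest gap, 14.7 points, at 24 h of brequinar, with 43.3% observed where 58.0% would be even. For Cd93 the gap was 9.66 points at 48 h of brequinar. On withdrawal at 48 h, gaps for Cd34 and Flt3 were 0.993 and 0.191 points, at levels where few cells had more than 1 UMI. Cells with at least 10% mitochondrial UMIs made up 1.70% of the brequinar 48 h culture, against 18.4% at 0 h. Leaving such cells out of all cultures changed no call.

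**Figure D5:**
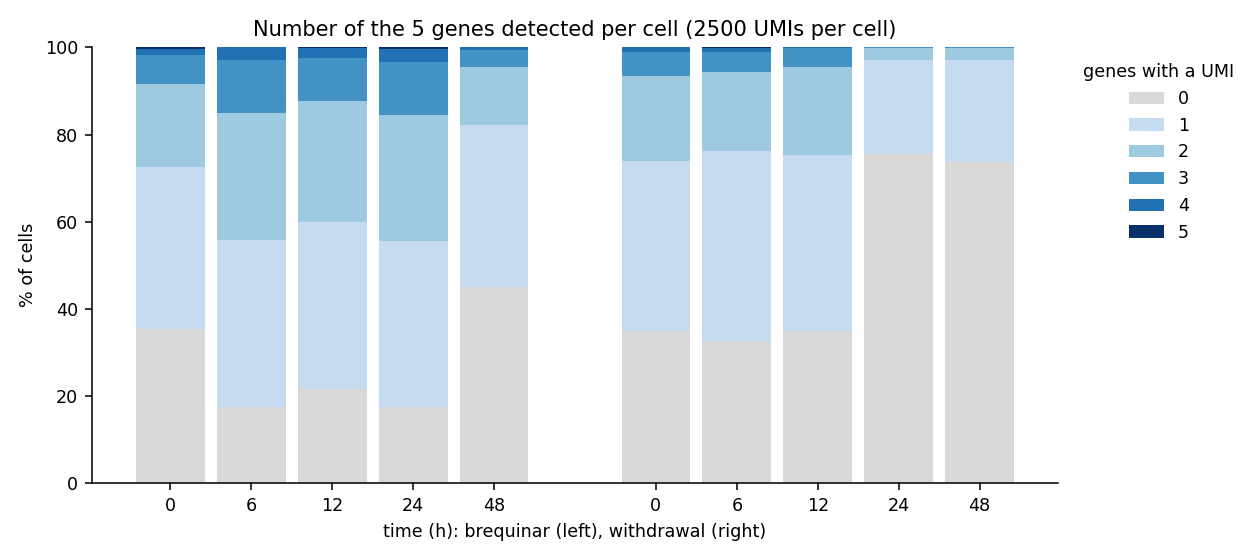
Percent of cells, each thinned to 2500 UMIs, in which 0 to 5 of the genes had a UMI, stacked from 0 to 100%, by time in hours with brequinar on the left and withdrawal on the right. At 24 h, cells with none of the 5 genes are 17.4% with brequinar and 75.5% on withdrawal.

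Seen together in single cells, the receptors were most widely detected at 6 and 24 h of brequinar. The mean number of the 5 genes with a UMI per thinned cell was 1.02, 1.44, 1.33, 1.46 and 0.779 over 0, 6, 12, 24 and 48 h of brequinar. It was 0.988, 0.982, 0.944, 0.275 and 0.293 over the withdrawal series. Cells with none made up 17.6% at 6 h of brequinar, against 35.4% at 0 h, and 45.0% at 48 h. On withdrawal they were 75.5% and 73.8% at 24 and 48 h, against 34.9% at 0 h. At 24 h of brequinar 12.2% of cells had 3 of the genes, 3.0007% had 4 and 0.349% had all 5. At 24 h of withdrawal 0.0874% had 3 and none of 1144 cells had more, which allows a share of up to 0.262%.

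Co-detection of pairs of receptors in the same thinned cell was set against the product of their shares. Over all 100 combinations of pair and culture, the observed share was above the product in 81, with a median ratio of 1.18. In the 53 combinations for which the product gives at least 20 cells, it was above in 49, and the ratio ran from 0.691 to 1.56 with a median of 1.16. Kit and Cd34 shared 20.3% of cells at 24 h of brequinar, where the product was 19.3%. Cd34 and Flt3 shared 20.1% at 6 h of brequinar, where the product was 19.5%. Cells share a library, so these ratios are descriptions only.

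Of genes for their ligands and binding partners, Kitl, which encodes stem cell factor, had 0 UMIs in all 10 cultures, which allows up to 0.573 CPM in the shallowest one. Flt3l, encoding FLT3 ligand, stayed between 0.275 and 1.66 CPM. Gipc1, whose product binds the cytoplasmic tail of Cd93, had 74.3 CPM at 48 h of brequinar, against 73.0 CPM at 0 h, and 71.7 CPM at 48 h of withdrawal, against 78.5 CPM at 0 h.

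Among 16 structural relatives of the receptors, 3 were measured at 48 h in each series. Adgre1, the gene of the macrophage adhesion receptor F4/80, had 64.9 CPM at 48 h of brequinar, against 3.56 CPM at 0 h (18.2-fold, 14.1 to 23.9), and 93.7 CPM at 48 h of withdrawal, against 4.78 CPM at 0 h (19.6-fold, 15.7 to 24.8). Thbd, encoding thrombomodulin, which like Cd93 carries a C-type lectin-like domain, was 3.90-fold (3.01 to 5.05) higher at 48 h of brequinar. Csf1r, a receptor kinase of the same family as Kit and Flt3 and a monocyte marker, had 54.6 CPM at 48 h of withdrawal, against 0.537 CPM at 0 h. With brequinar Csf1r also stood higher at 48 h, at 19.9 CPM against 1.10 CPM at 0 h, just short of the 20 CPM needed for a call. Adgrg3, a sister gene of Adgrg1, had 75.9 CPM at 48 h of withdrawal, against 153 CPM at 0 h, and was 2.01-fold (1.83 to 2.22) lower.

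The lists that follow are read against all genes measured, of which 25.7% were higher and 17.3% lower at 48 h of brequinar, with a median log2 ratio of 0.04, and 21.5% higher and 40.7% lower at 48 h of withdrawal, with a median of -0.33. Genes that carry the signal of Kit and Flt3 inside the cell had higher members in both series and lower ones on withdrawal. Of 34 such genes 27 were measured at 48 h of brequinar: 10 were higher and 0 lower (1 lower with median-of-ratios scaling), with a median log2 ratio of 0.42 where all genes had 0.04. Jak2, a cytokine receptor kinase, was 5.51-fold (4.63 to 6.56) higher, Pik3cb, a PI3 kinase subunit, 3.01-fold (2.47 to 3.66), Braf 2.85-fold (2.52 to 3.22) and Stat3 2.26-fold (2.01 to 2.53). At 48 h of withdrawal 9 of 26 were higher and 5 lower (2 lower with median-of-ratios scaling), with a median of 0.15 where all genes had -0.33. Mapk3, which encodes the kinase ERK1, was 5.595-fold (5.09 to 6.16) higher there, Jak2 3.11-fold (2.58 to 3.74), Braf 2.96-fold (2.64 to 3.32) and Pik3cb 2.90-fold (2.40 to 3.50). Hras was 2.59-fold (2.35 to 2.85) lower, Stat5a 2.50-fold (2.03 to 3.11) and the phosphatase gene Ptpn11 1.76-fold (1.52 to 2.05).

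Of 26 genes that restrain receptor kinase signalling, 12 were measured at 48 h in each series. With brequinar 4 were higher and 1 lower (all genes 25.7% and 17.3%), and on withdrawal 4 were higher and 4 lower (all genes 21.5% and 40.7%), shares not far from the background. Dusp5, a phosphatase gene that limits ERK, had 120.1 CPM at 48 h of brequinar, against 5.42 CPM at 0 h (22.2-fold, 18.0 to 27.4), and 38.0 CPM at 48 h of withdrawal, against 5.21 CPM at 0 h. Dusp6, another ERK phosphatase gene, was 1.79-fold (1.63 to 1.95) higher at 48 h of brequinar and 2.91-fold (2.50 to 3.399) lower at 48 h of withdrawal. Spry2 and Spred1, inhibitors of RAS signalling, were 4.32-fold (3.68 to 5.11) and 3.94-fold (3.02 to 5.22) lower at 48 h of withdrawal. Ptpn6, encoding the phosphatase SHP-1 of mature blood cells, was 1.87-fold (1.75 to 2.00) higher with brequinar and 2.71-fold (2.56 to 2.86) higher on withdrawal. Cbl, a ubiquitin ligase gene that turns over activated Kit and Flt3, was 1.68-fold (1.48 to 1.90) and 2.37-fold (2.13 to 2.63) higher, and Dok1 was 1.57-fold (1.31 to 1.88) higher on withdrawal. Rasa2 was 1.64-fold (1.40 to 1.93) lower with brequinar and 2.02-fold (1.74 to 2.37) lower on withdrawal. Median log2 ratios of the list were 0.23 and -0.13 at 48 h of brequinar and withdrawal, where all genes had 0.04 and -0.33.

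The 15 genes around G12/13 signalling, downstream of Adgrg1, had 11 measured at 48 h in each series. With brequinar 4 were higher and 1 lower, where 25.7% and 17.3% of all genes were, and the median log2 ratio was 0.33 (all genes 0.04). On withdrawal 5 were higher and 2 lower, where 21.5% and 40.7% of all genes were, and the median was 0.22 (all genes -0.33). Rhob, a small GTPase gene, was 3.71-fold (3.19 to 4.32) higher at 48 h of brequinar and 3.50-fold (3.05 to 4.02) at 48 h of withdrawal. Arhgef1, a guanine nucleotide exchange factor gene, was 1.95-fold (1.69 to 2.24) and 2.35-fold (2.08 to 2.65) higher. Gna13 was 2.23-fold (2.02 to 2.46) higher with brequinar. Cd81, a tetraspanin gene whose product associates with Adgrg1, was 2.00-fold (1.88 to 2.14) lower with brequinar and 1.68-fold (1.59 to 1.77) lower on withdrawal. Gna11 was 1.78-fold (1.49 to 2.12) higher with brequinar and 2.23-fold (1.72 to 2.94) lower on withdrawal. Cd9 and Gnaq were 2.05-fold (1.80 to 2.33) and 1.66-fold (1.53 to 1.81) higher on withdrawal.

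Other surface genes of progenitors and stem cells had higher and no lower members at 48 h. Of 33 genes, 13 were measured at 48 h of brequinar, of which 9 were higher and 0 lower (all genes 25.7% and 17.3%). At 48 h of withdrawal 6 of 12 were higher and 0 lower (all genes 21.5% and 40.7%). Median log2 ratios were 1.0105 and 0.57, where all genes had 0.04 and -0.33. Csf2rb, the shared receptor subunit for GM-CSF and interleukin 3, had 226 CPM at 48 h of brequinar, against 40.4 CPM at 0 h, and 189 CPM at 48 h of withdrawal, against 40.9 CPM at 0 h. Itga2b, an integrin gene of megakaryocytes and early progenitors, was 14.1-fold (11.2 to 17.8) higher with brequinar, Il3ra 4.12-fold (3.15 to 5.40), and Cxcr4, the receptor for CXCL12, 3.36-fold (2.93 to 3.85). Cxcr4 was 5.02-fold (4.46 to 5.66) higher on withdrawal, and Cd33 2.53-fold (2.38 to 2.69). Bst1 had 31.9 CPM at 48 h of withdrawal and no UMI at 0 h of that series, so its ratio has no point value. The lower end of the exact interval of that ratio was 159.8. In the brequinar 0 h culture Bst1 had 0.251 CPM.

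Of 23 hematopoietic transcription factor genes, 4 of 16 measured were higher and 2 lower at 48 h of brequinar, and 5 of 15 were higher and 8 lower at 48 h of withdrawal. Of all genes 25.7% were higher and 17.3% lower with brequinar, so the brequinar counts are near the background, and 21.5% were higher and 40.7% lower on withdrawal. Spi1 was 3.71-fold (3.54 to 3.88) and 3.82-fold (3.66 to 3.99) higher, and Runx1 2.77-fold (2.44 to 3.14) and 2.46-fold (2.17 to 2.80). Fli1 was 1.82-fold (1.64 to 2.03) and 1.87-fold (1.70 to 2.06) higher. Gfi1, a repressor gene of granulocyte development, was 1.86-fold (1.71 to 2.02) higher with brequinar, and Hoxa9 1.92-fold (1.77 to 2.08) higher on withdrawal. Sox4 was 2.29-fold (2.05 to 2.57) lower with brequinar and 15.0-fold (11.7 to 19.6) lower on withdrawal. Tal1, a stem cell and erythroid factor gene, was 2.75-fold (2.01 to 3.85) and 9.43-fold (5.65 to 17.0) lower. Meis1, a partner of HOXA9, was 6.29-fold (4.67 to 8.66) lower on withdrawal, and Myb, a factor gene of dividing progenitors, 2.82-fold (2.65 to 3.0006). The list's median log2 ratio was 0.31 with brequinar and -0.63 on withdrawal, where all genes had 0.04 and -0.33.

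The genes whose course over the 10 cultures was most like that of each receptor were ranked among 6650 genes by Pearson correlation of log2(CPM + 5). Points share cultures and library, so the values describe likeness only. For Kit these were Prkca (0.953), Pcgf3 (0.940) and Nipsnap1 (0.940). For Cd34 they were Sdhb (0.985), Ptdss2 (0.985) and Tcf12 (0.978), and for Flt3 P2rx3 (0.979), Fchsd2 (0.975) and Scaf4 (0.965). Cd93 was most like Ccl3 (0.989), Bach1 (0.985) and Rlf (0.981), and Adgrg1 most like H13 (0.982), Stat5a (0.974) and Prkar1a (0.972). Likeness of course did not mean likeness of size: Sdhb, a respiratory chain subunit gene, ran from 184 to 394 CPM while Cd34 ran from 12.4 to 412 CPM. Ccl3, a chemokine gene, had 812 CPM at 48 h of brequinar, against 27.0 CPM at 0 h, and 469 CPM at 48 h of withdrawal, against 30.7 CPM at 0 h. By rank correlation Pcgf3 stayed among the top 3 for Kit and Fchsd2 for Flt3, and none of the 3 did so for Cd34, Cd93 and Adgrg1. Among the receptors themselves Cd34 and Adgrg1 were closest (0.910), followed by Cd34 and Flt3 (0.866). Correlations of Cd93 with the other 4 ran from -0.43 to -0.16.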

How the data were processed

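Single cells of 10 barcoded cultures were measured in 2 runs with 10x Genomics v3 kits, as the labels' protocols say. The files the authors deposited hold raw UMI counts per cell barcode and gene, with both runs in 1 spliced matrix that carries no mark of the run. Cell Ranger, bustools 0.39.4 and kallisto 0.46 were used, per the submitters' processing notes, which give no roles. The genome build is not given in the sources used here. Versioned Ensembl IDs were given symbols from a reference table of gene names (54723 of 54838 matched). Runs cannot be separated, so a barcode present in both would count as 1 cell. Repeated listings touched 26 annotated barcodes, which the authors' calls put among negatives. Those called doublet (2777) or negative (265) by the authors were left out and no other doublet caller was run, which left 12540 cells with 134068354 UMIs. The unspliced matrix was not used here.

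Counts were summed per culture and divided by the culture's total to give CPM. Ratios carry exact conditional binomial intervals, levels exact Poisson and shares exact binomial (Clopper-Pearson) intervals, all for counting error only. UMIs remove PCR copies. Each condition is 1 culture and treated cultures were set against 0 h of their own series and, at matched times, with the other treatment. The ratio and thinning steps were tested on simulated data. Python 3.11.15, numpy 2.4.6, scipy 1.17.1 and edgeR 4.0.16 (TMM factors only) were used. The 5 genes, the 7 gene lists and the 9 marker lists were chosen with earlier results of these data known. Named from each gene list were up to 4 measured genes with the largest ratio in each direction past 1.5-fold at 48 h of each treatment. Also named were the 3 genes most alike in course to each receptor, and genes of a marker list with the highest levels. Flt3l, Kitl, Gipc1, Ear1, Ear2, Fcer1a, Cdh5, Emcn and C1qa fall outside this rule and were named after their values were seen. Some genes that the rule covers are not reported here. Alternatives were TMM or median-of-ratios scaling, equal weight per cell, deeper cells, cells under 10% mitochondrial UMIs, removal of 5% free RNA, other thinning depths, filters, a call at 2-fold, a pseudocount of 1 in place of 5 CPM and rank correlation. Leaving out the marker-rich cells was added after seeing the data.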

Additional observations from a re-analysis of the deposited data

Results flagged for a closer look

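Several receptor genes stood on opposite sides of 1 in the brequinar and withdrawal series, each set against its own 0 h culture and with intervals that exclude 1. The difference between series was not tested, since each condition is 1 culture. Kit at 24 h had a ratio of 1.41 with brequinar and 0.402 on withdrawal. Its brequinar ratio became 1.20 with TMM and 1.19 with median-of-ratios scaling. Cd34 at 24 h had 2.56 with brequinar and 0.146 on withdrawal. Flt3 had 2.09 with brequinar and 0.707 on withdrawal at 6 h, and 1.53 with brequinar and 0.234 on withdrawal at 12 h. Adgrg1 had the reverse pattern at 12 h, 0.831 with brequinar and 1.36 on withdrawal, and at 24 h 1.23 with brequinar and 0.314 on withdrawal. None of these directions changed under the 6 alternative scalings and cell filters run for them. However, the Adgrg1 ratio at 24 h of brequinar came to 1.04 with both TMM and median-of-ratios scaling. It stayed above 1, but its distance from 1 depends on the scaling.

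All 5 genes were also present in barcodes of 2 to 100 UMIs, which hold free RNA or debris and belong to no culture. The removal of 5% free RNA used the levels in these barcodes. Those levels were 126 CPM for Kit, 130.2 for Cd34, 81.0 for Flt3, 34.6 for Cd93 and 108 for Adgrg1, where 3 counts correspond to 1.68 CPM. For Kit, Cd34, Flt3 and Adgrg1 these lie above the levels in the 24 and 48 h withdrawal cultures.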

How the results depend on the processing

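Under the alternatives run, none reversed a called ratio of levels. The call (higher, lower or neither) was the same for 59 of 65 ratios with TMM and with median-of-ratios scaling. It was the same for 62 of 65 with equal weight per cell. All 65 kept their call in cells of at least 2500 UMIs, in cells under 10% mitochondrial UMIs and after removal of 5% free RNA. The side of 1 was kept by 64 ratios with TMM and with median-of-ratios scaling and by 62 with equal weight per cell. It was kept by 63 in cells of at least 2500 UMIs, 64 in cells under 10% mitochondrial UMIs and 65 with free RNA removed. At 48 h against 0 h, TMM scaling gave 0.717 for Kit, 0.625 for Cd34 and 4.06 for Cd93 with brequinar. Median-of-ratios scaling gave 0.215 for Kit and 4.83 for Cd93 on withdrawal. Equal weight per cell gave 0.643 for Kit and 0.375 for Adgrg1 with brequinar and 3.38 for Cd93 on withdrawal. Removal of free RNA gave 0.136 for Kit, 0.0448 for Cd34, 0.0261 for Flt3 and 0.128 for Adgrg1 on withdrawal. For brequinar against withdrawal at 48 h, TMM and median-of-ratios scaling gave 3.50 and 3.50 for Kit, 6.29 and 6.29 for Cd34, 1.02 and 1.02 for Cd93 and 2.00 and 2.00 for Adgrg1, and equal weight per cell gave 3.76 for Kit. Removal of free RNA gave 6.01 for Kit, 16.2 for Cd34, 12.9 for Flt3 and 3.45 for Adgrg1. The cause was not tested.

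Of 28 list counts at 48 h, 4 moved by over 1.5 times with median-of-ratios scaling, 6 at 50 CPM or more, 10 with a call at 2-fold and 17 with no filter on low values, in part because each setting changes how many genes can be called. With median-of-ratios scaling the receptor kinase signalling list had 1 gene lower with brequinar (0 before) and 2 on withdrawal (5 before). All 50 unthinned shares and 44 of 50 shares at 1500 UMIs moved, by construction of the depth. Counts of 43 and 83 Flt3 UMIs late in withdrawal limit what depth can show. No paired analysis was possible because each condition is 1 culture. Leaving out a replicate was not possible for the same reason, and runs are not marked.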
